A study of Mus musculus with 8 samples.

Results

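Gpr34, a receptor for lysophosphatidylserine, and 9 genes of purinergic signalling were followed in mouse bone marrow-derived macrophages (BMDMs) after knockdown of the long noncoding RNA MAARS. The 9 were the nucleotide receptors P2ry2, P2ry6, P2ry12, P2ry13, P2ry14, P2rx4 and P2rx7, the ectonucleotidase Entpd1 and the adenosine receptor Adora2b. These 10 genes were among 49315 in the count table and were found by gene symbol. They were chosen by their values in the comparison of MAARS with control gapmeR, so their differences between the groups are given as a description, without a test. All 10 passed the filter on low counts that left 13051 genes.

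Bone marrow of C57BL/6 mice was cultured with 10 ng/ml M-CSF, the growth factor that drives macrophage differentiation, and transfected with a gapmeR, an antisense oligonucleotide that directs cleavage of its target RNA, at 25 nM. The control gapmeR group (negative control #1) had 4 libraries (replicates 2, 5, 6 and 7) and the MAARS gapmeR group had 4 (replicates 9, 11, 13 and 15). All 8 shared the strain, the culture and the lipid transfection, there was no untransfected group, and ribosomal RNA was depleted before paired-end sequencing. The sources used here do not say whether the libraries of a group came from separate mice, so p-values measure only the spread between these libraries.

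MAARS itself (Gm14461, ENSMUSG00000054510, on chromosome 2) averaged 13.1 ± 1.36 CPM (SD, n = 4; CPM are counts scaled to a common library total) with control gapmeR and 6.82 ± 0.844 with MAARS gapmeR, 1.93-fold lower, with an adjusted p of 5.8e-05 in edgeR's quasi-likelihood test. Total counts per library were 19287279 to 20567123 with control gapmeR and 20839671 to 24541205 with MAARS gapmeR. Every MAARS library was thus deeper than every control library, and depth and group cannot be told apart. All 10 macrophage markers passed the filter, at a summed 14845 to 18125 CPM in control and 18364 to 21778 CPM in MAARS libraries. Of them 6 were called higher and 3 lower (adjusted p under 0.05), beside 21.3% and 24.0% of all genes tested. Lyz2, which averaged 9402 and 13170 CPM, made up most of the sum, and the 3 lower were Fcgr1 (808 and 190 CPM), Cd68 (2162 and 1710 CPM) and Spi1 (344 and 263 CPM). In bulk RNA, fewer cells of a type and less RNA per cell cannot be told apart.

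Nucleotides released by stressed or dying cells act on P2X receptors, which are ATP-gated cation channels, and on P2Y receptors, which couple to G proteins and sense ATP, UTP, ADP, UDP or UDP-sugars. Surface enzymes shorten this signal: CD39, the product of Entpd1, converts ATP and ADP to AMP, from which CD73 makes adenosine for the adenosine receptors. In macrophages these receptors are known for steering migration towards dying cells, their engulfment and inflammasome activation, and Gpr34 senses a lipid derived from the phosphatidylserine that dying cells expose.

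In these libraries, Gpr34, P2rx7 and Entpd1 were higher with MAARS gapmeR in all 4 libraries than in any control library, and P2ry2, P2ry13, P2ry14 and Adora2b were lower in all 4. P2ry6, P2ry12 and P2rx4 overlapped between the groups. Related and neighbouring genes did not share 1 direction: P2ry12 overlapped between the groups while the neighbouring P2ry13 and P2ry14 were lower, and P2rx7 was higher while the nearby P2rx4 was not.

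At the threshold of 0.05 on the adjusted p, 3 of the 10 genes counted as called higher, 5 as called lower and 2 as not called. Among all genes tested the call was made for 45.4%, with 21.3% higher and 24.0% lower. The groups did not overlap for 7 of the 10, and for 42.1% of all genes tested. Because the genes were selected on this comparison, nothing is read from these counts. The median log2 fold change of all genes tested was 0.0080, and 47.0% of all calls were higher (60.4% with upper-quartile scaling, which moved that median to 0.071).

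**Figure D1:**
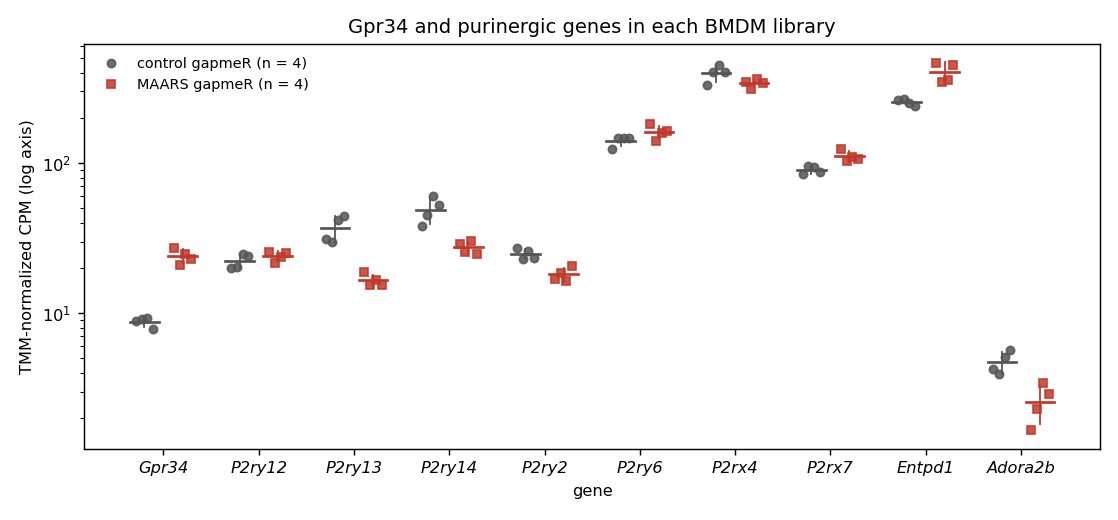
TMM-normalized CPM (log axis) of Gpr34 and the 9 purinergic genes in each library, with control gapmeR as grey circles and MAARS gapmeR as red squares. Horizontal lines are the group means and vertical lines ± 1 SD (n = 4); Gpr34, P2rx7 and Entpd1 sit higher with MAARS gapmeR and P2ry2, P2ry13, P2ry14 and Adora2b lower, without overlap.

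Gpr34 (ENSMUSG00000040229) lies on the plus strand of chromosome X at 13632089 to 13640858 (GRCm38), inside Cask on the opposite strand, with no exonic base in common. The control libraries 2, 5, 6 and 7 had 8.81, 9.17, 9.30 and 7.86 CPM. The MAARS libraries 9, 11, 13 and 15 had 27.3, 21.05, 24.9 and 22.8 CPM. Every MAARS library was far above every control library. The log2 fold change was 1.45 ± 0.097 (SE), or 2.73-fold, and 2.38% of the genes tested had a larger absolute log2 fold change. These values rested on 160 to 180 counts in control and 526 to 578 counts in MAARS libraries.

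Among the P2Y receptors, P2ry12, P2ry13 and P2ry14 belong to the branch that couples to Gi, the G protein that inhibits adenylyl cyclase. The first of them is the ADP receptor of platelets and microglia, P2ry13 is a further ADP receptor, and P2ry14 senses UDP-glucose. Their genes form a cluster on the minus strand of chromosome 3 within 149017 bases, all inside Med12l, a Mediator subunit gene on the plus strand. P2ry12 (ENSMUSG00000036353) is at 59216272 to 59262871, P2ry13 (ENSMUSG00000036362) at 59207892 to 59210882 and P2ry14 (ENSMUSG00000036381) at 59113855 to 59153618. P2ry12 and P2ry13 are separated by 5389 bases, and P2ry13 and P2ry14 by 54273.

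P2ry12 had 19.9, 20.3, 24.7 and 24.2 CPM in control libraries 2, 5, 6 and 7, and 25.7, 21.7, 23.5 and 25.3 CPM in MAARS libraries 9, 11, 13 and 15. The groups overlapped, and the log2 fold change was 0.11 ± 0.088 (SE). P2ry13 had 31.2, 29.9, 41.9 and 44.2 CPM in the control libraries and 18.7, 15.3, 16.5 and 15.5 CPM in the MAARS libraries. Every MAARS library was lower than every control library, with a log2 fold change of -1.16 ± 0.13, or 2.23-fold lower. P2ry14 had 38.0, 45.1, 60.0 and 52.8 CPM in the control libraries and 29.1, 25.7, 30.1 and 24.8 CPM in the MAARS libraries. Here too the groups did not overlap, and the log2 fold change was -0.84 ± 0.12, or 1.79-fold lower. Within the control group all 3 genes were lower in replicates 2 and 5 than in replicates 6 and 7, so their control values moved together from library to library.

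**Figure D2:**
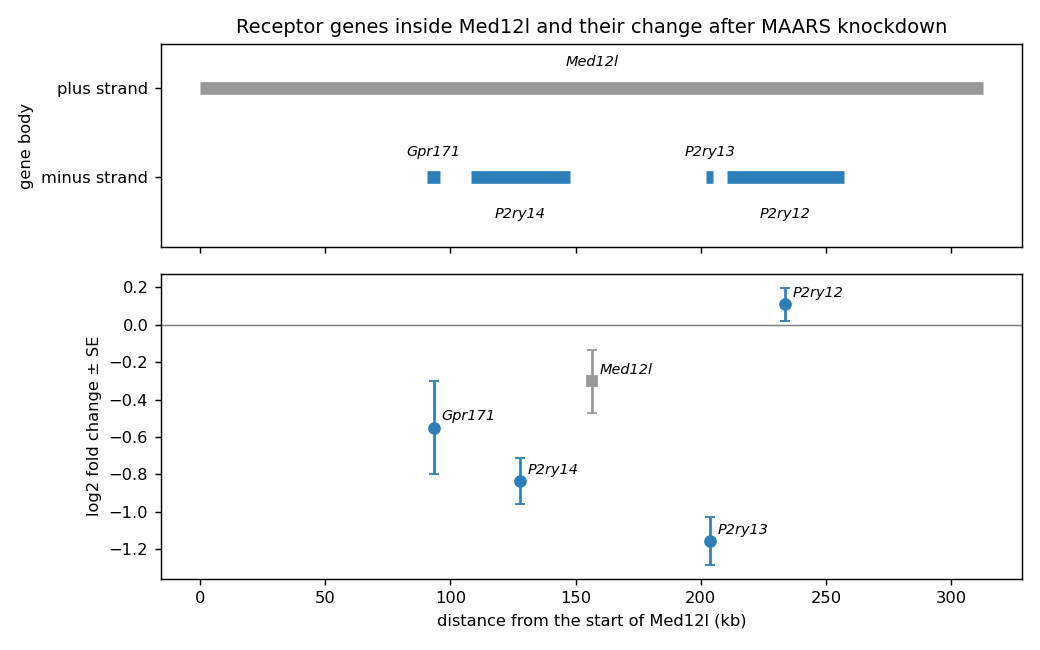
Upper panel, bodies of the genes named in the text along Med12l by strand, with distance from the start of Med12l in kb. Lower panel, log2 fold change with MAARS over control gapmeR ± SE for the genes drawn, where P2ry12 at 0.11 stands above 0 beside P2ry13 at -1.16.

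The map of gene bodies along Med12l sets the change of each gene at its place, with P2ry12 apart from P2ry13 and P2ry14. The ratio of P2ry12 to P2ry13, in CPM per kb of exon, was 0.609 ± 0.056 in control libraries (SD, n = 4, 0.543 to 0.673) and 1.45 ± 0.11 in MAARS libraries (1.37 to 1.62). The host gene Med12l averaged 2.73 CPM with control and 2.20 CPM with MAARS gapmeR, with a log2 fold change of -0.30 and an adjusted p of 0.166 (edgeR). P2ry12 shares 9 exonic bases with Med12l on the opposite strand, 0.4% of its exons, and the strand setting of the counting is not stated in the sources used here. The receptor gene Gpr171, near P2ry14, averaged 0.988 and 0.677 CPM, with a log2 fold change of -0.55 and an adjusted p of 0.0934.

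The promoter sequences of these 3 neighbours are shown because P2ry13 and P2ry14 were lower with MAARS gapmeR while P2ry12, close by, overlapped between the groups. Each line is the 250 bases before the RefSeq start site (GRCm38.p6, minus strand, 5′ to 3′), at chr3:59262986-59263235 for P2ry12, chr3:59210883-59211132 for P2ry13 and chr3:59153493-59153742 for the outermost start of P2ry14. Capitals mark GAGGAA, on either strand, the core letters of sites bound by PU.1, an ETS factor that defines the macrophage lineage.
P2ry12: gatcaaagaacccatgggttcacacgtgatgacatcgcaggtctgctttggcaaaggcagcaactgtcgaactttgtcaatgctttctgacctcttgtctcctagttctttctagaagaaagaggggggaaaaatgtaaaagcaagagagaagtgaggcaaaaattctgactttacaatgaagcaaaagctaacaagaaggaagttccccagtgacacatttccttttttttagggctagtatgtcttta
P2ry13: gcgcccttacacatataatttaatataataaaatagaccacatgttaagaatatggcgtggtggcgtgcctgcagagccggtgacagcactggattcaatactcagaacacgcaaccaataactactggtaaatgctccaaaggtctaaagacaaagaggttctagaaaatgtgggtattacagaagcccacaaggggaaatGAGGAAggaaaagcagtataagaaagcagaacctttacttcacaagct
P2ry14: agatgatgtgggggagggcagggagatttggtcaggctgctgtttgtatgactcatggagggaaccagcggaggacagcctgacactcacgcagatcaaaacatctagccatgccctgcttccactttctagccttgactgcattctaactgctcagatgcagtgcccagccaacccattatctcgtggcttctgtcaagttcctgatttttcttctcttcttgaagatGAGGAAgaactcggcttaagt

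The P2ry12 window held no match, the P2ry13 window held 1 at 48 bases before the start and the P2ry14 window held 1 at 21 bases before the start. RefSeq windows of 300 bases (250 before and 50 after a start) were available for 8 of the 10 genes, 14 windows in all, and GAGGAA was found in 8 of the 14, in P2ry13, P2ry14, P2rx7 and Entpd1, against 28.3% of all 32851 windows. All 4 windows of P2ry14 held it, and 2 of those windows overlap and share a site. P2rx7 and Entpd1, which also held it, were higher with MAARS gapmeR. The windows of P2ry2 and Adora2b, which were lower, held no match. An interferon-stimulated response element (GAAANNGAAA), a gamma-activated sequence (TTCNNNGAA) and a full cyclic AMP response element (TGACGTCA) were in 0 of the 14 windows, against 3.44%, 8.3% and 1.79% of all windows. An AP-1 site (TGANTCA) was in 3 windows of 2 genes, against 7.81% of all windows. The 4 motifs other than GAGGAA were also searched on both strands. A match is a run of letters and no measure of binding, and these windows do not show why a gene was higher or lower.

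P2ry2 and P2ry6 are receptors for uridine nucleotides that couple to Gq, which activates phospholipase C. P2ry2 senses ATP and UTP as a find-me signal of dying cells, and P2ry6 senses UDP and is known for stimulating phagocytosis in microglia. Both lie on the minus strand of chromosome 7, P2ry2 (ENSMUSG00000032860) at 100996568 to 101012866 and P2ry6 (ENSMUSG00000048779) at 100937630 to 100974649, with 21918 bases between them.

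P2ry2 had 27.0, 23.0, 26.1 and 23.2 CPM in control libraries 2, 5, 6 and 7, and 16.9, 18.4, 16.4 and 20.8 CPM in MAARS libraries 9, 11, 13 and 15. All MAARS libraries were below all control libraries, and the log2 fold change was -0.45 ± 0.088 (SE), or 1.37-fold lower. P2ry6 had 124, 146, 147 and 147 CPM in the control libraries and 182, 141, 159 and 163 CPM in the MAARS libraries. Control replicate 2 stood apart from the 3 other control libraries, and the groups overlapped, with MAARS replicate 11 below those 3; the log2 fold change was 0.19 ± 0.079. Without MAARS replicate 11 this value was 0.25, and the gene was then called higher. The ratio of P2ry6 to P2ry2 in CPM per kb was 7.78 ± 1.13 (SD, n = 4) in control and 12.2 ± 2.04 in MAARS libraries, without overlap.

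P2rx4 and P2rx7 are the ATP-gated channels. P2X7 needs high extracellular ATP and is known for triggering the NLRP3 inflammasome, while P2X4 responds to lower ATP and resides largely in lysosomes of macrophages. The genes lie on the plus strand of chromosome 5, P2rx7 (ENSMUSG00000029468) at 122643911 to 122691432 and P2rx4 (ENSMUSG00000029470) at 122707544 to 122729738, 16111 bases apart.

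P2rx7 had 84.6, 95.8, 93.8 and 86.9 CPM in control libraries 2, 5, 6 and 7, and 125, 103, 111 and 106 CPM in MAARS libraries 9, 11, 13 and 15. Every MAARS library was above every control library, with a log2 fold change of 0.30 ± 0.065 (SE), or 1.23-fold. P2rx4 had 333, 402, 449 and 402 CPM in the control libraries and 346, 312, 362 and 339 CPM in the MAARS libraries. Control replicate 2 was below 3 of the MAARS libraries, so the groups overlapped, and the log2 fold change was -0.22 ± 0.081. P2rx4 was called lower with all 8 libraries but not without control replicate 5 (-0.22), 6 (-0.16) or 7 (-0.22) or MAARS replicate 9 (-0.24), 11 (-0.18) or 15 (-0.22), nor with upper-quartile scaling, where it was -0.16. The ratio of P2rx4 to P2rx7 in CPM per kb was 3.73 ± 0.33 (SD, n = 4, 3.34 to 4.06) in control and 2.61 ± 0.19 (2.36 to 2.78) in MAARS libraries. A microRNA gene, Mir8115, shares 2.0% of the exonic bases of P2rx7 on the same strand and had 0 counts in every library.

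Entpd1 (ENSMUSG00000048120, chromosome 19, 40612366 to 40741602, plus strand) encodes the ATP- and ADP-degrading enzyme. It had 262, 267, 249.5 and 242 CPM in control libraries 2, 5, 6 and 7, and 466, 347, 360.1 and 454 CPM in MAARS libraries 9, 11, 13 and 15. The lowest MAARS library was well above the highest control library, and the MAARS libraries formed a higher pair (9 and 15) and a lower pair (11 and 13). The log2 fold change was 0.67 ± 0.092 (SE), or 1.59-fold.

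Adora2b (ENSMUSG00000018500, chromosome 11, 62248984 to 62266453, plus strand) encodes the low-affinity adenosine receptor, which couples to Gs and raises cyclic AMP. It was the least abundant gene of the set. The control libraries had 4.25, 3.92, 5.14 and 5.65 CPM and the MAARS libraries 1.66, 2.31, 3.40 and 2.90 CPM. The groups did not overlap, and the log2 fold change was -0.88 ± 0.21 (SE), or 1.84-fold lower. With 77 to 115 counts in control and 35 to 74 counts in MAARS libraries, its standard error was the largest of the 10.

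**Figure D3:**
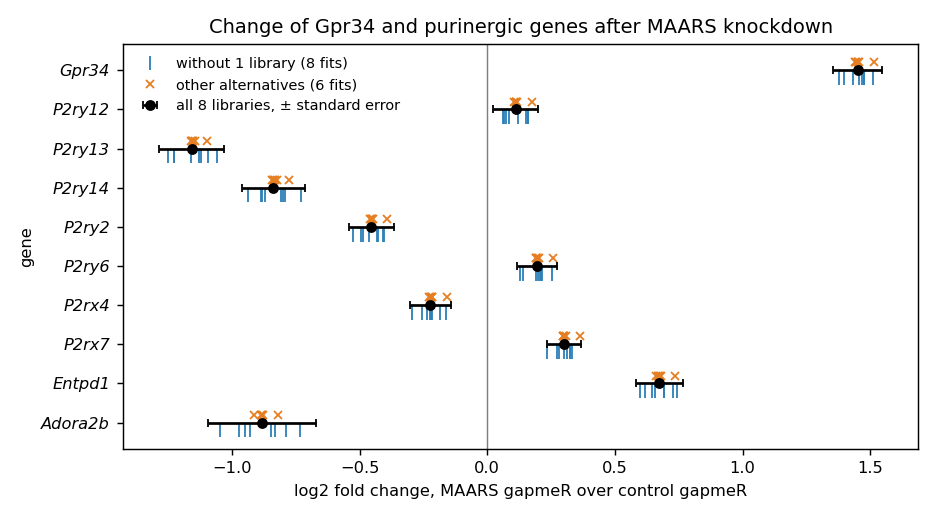
Log2 fold change with MAARS over control gapmeR for each gene: black points with ± SE use all 8 libraries, blue ticks leave out 1 library in turn (8 fits) and orange crosses are 6 other fits. Each gene stays on its side of 0 in all 14 alternatives, with P2ry12 (0.11), P2ry6 (0.19) and P2rx4 (-0.22) nearest to 0.

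Levels were compared between genes as CPM per kb of annotated exon, which takes out gene length. In control libraries the order (mean ± SD, n = 4) was P2rx4 at 56.4 ± 6.79, P2ry6 at 48.8 ± 3.96, Entpd1 at 45.7 ± 2.08, P2rx7 at 15.1 ± 0.90, P2ry13 at 14.6 ± 2.88, P2ry12 at 8.75 ± 0.99, P2ry2 at 6.32 ± 0.51, P2ry14 at 4.43 ± 0.86, Gpr34 at 4.20 ± 0.31 and Adora2b at 2.57 ± 0.43 CPM per kb. In this order P2rx4 overlapped P2ry6, P2ry6 overlapped Entpd1, P2rx7 overlapped P2ry13, and P2ry14 overlapped Gpr34. Thus P2rx4, P2ry6 and Entpd1 formed a group of high level, and Gpr34 stood last but for Adora2b.

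With MAARS gapmeR the order was Entpd1 at 72.9 ± 11.1, P2ry6 at 55.8 ± 5.79, P2rx4 at 48.4 ± 2.97, P2rx7 at 18.6 ± 1.60, Gpr34 at 11.5 ± 1.30, P2ry12 at 9.45 ± 0.71, P2ry13 at 6.53 ± 0.61, P2ry2 at 4.61 ± 0.50, P2ry14 at 2.48 ± 0.23 and Adora2b at 1.39 ± 0.41 CPM per kb. Entpd1 overlapped P2ry6, P2ry6 overlapped P2rx4, and Gpr34 overlapped P2ry12. Gpr34 moved from rank 9 to rank 5 and the ADP receptor P2ry13 from rank 5 to rank 7, and the ratio of Gpr34 to P2ry13 went from 0.299 ± 0.070 to 1.76 ± 0.068. Entpd1 moved from rank 3 to rank 1, and its ratio to P2rx4 went from 0.821 ± 0.13 to 1.51 ± 0.22. The summed level of the 10 genes was 188 to 221 CPM per kb in control and 206 to 255 in MAARS libraries, which overlapped. With the length of the longest transcript in place of all exons, P2rx4 stood at 102 rather than 56.4 CPM per kb in control libraries, so the levels rest on the exon model, while the order of the 10 in control libraries was the same.

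**Figure D4:**
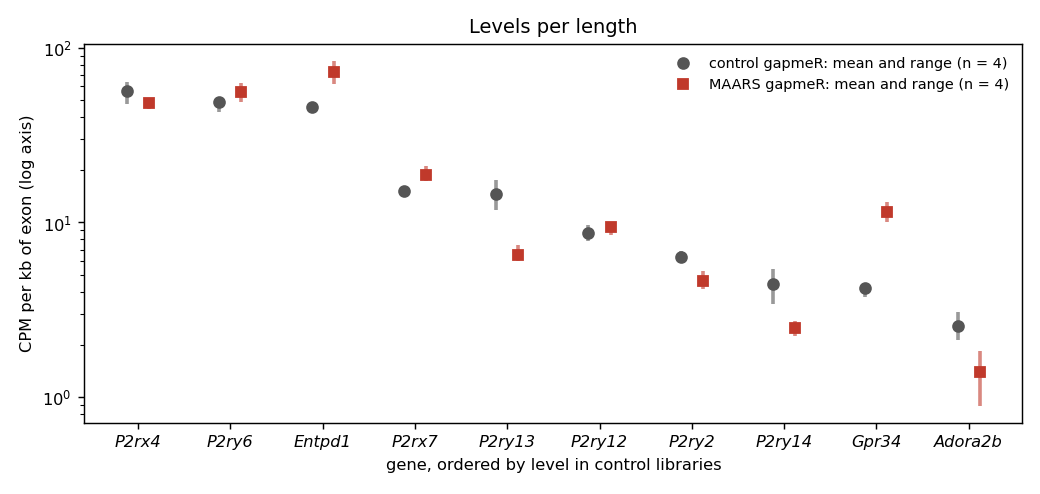
CPM per kb of exon (log axis) of the 10 genes, ordered by their level in control libraries; grey circles are control and red squares MAARS gapmeR, each the mean of 4 libraries with the range as a line. Gpr34 leaves the low end (4.20 to 11.5) while P2ry13 descends (14.6 to 6.53).

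Within the groups, deviations of log2 CPM from the group mean were compared over the 8 libraries for the 45 pairs of these genes, as a description of values that share the same libraries. The correlation was 0.90 for P2ry14 with P2rx4, 0.87 for P2ry12 with P2ry13, 0.85 for Gpr34 with P2rx7, 0.81 for P2ry6 with P2rx7 and 0.81 for P2ry13 with P2ry14. The median over all pairs was 0.29 and the range -0.53 to 0.90. P2ry12 and P2ry13 thus varied alike among the control libraries and less so among the MAARS libraries. In MAARS replicates 9 and 11 their deviations had the same sign (0.097 and 0.182, -0.144 and -0.103). In replicates 13 and 15 the signs differed (-0.029 and 0.007, 0.076 and -0.085). Between the groups P2ry13 was lower and P2ry12 overlapped.

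By Pearson correlation of log2 CPM over all 8 libraries, the 5 genes most like Gpr34 were Atp6v0d2 (0.998), Kank2 (0.998), Arhgap19 (0.997), Abca9 (0.997) and Cyp39a1 (0.996). Atp6v0d2 encodes a subunit of the vacuolar proton pump, Arhgap19 a GTPase-activating protein, Abca9 a transporter of the ABCA family and Cyp39a1 an oxysterol hydroxylase. Cyp39a1 was near 0 in control libraries, with 2 to 4 counts (0.168 CPM on average, against 1.40 CPM with MAARS gapmeR). In all, 504 genes had a correlation over 0.95. The difference between the 2 groups makes up much of such a correlation.

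The genes that overlap the 10, and the nearest tested gene on each side of each, were compared next, as genes that the choice had not used. Of 18 such genes 14 were tested, with 3 called higher, 1 lower and 10 not called, beside 45.4% called among all genes tested. Cask, the scaffold kinase gene that contains Gpr34, averaged 30.6 CPM with control and 31.9 CPM with MAARS gapmeR (log2 fold change 0.06, adjusted p 0.505, edgeR). Ddx3x, an RNA helicase gene 338036 bases to the left of Gpr34, rose by 0.32 (adjusted p 0.00064), and Gpr82, a receptor gene on its right, had 0.41 (adjusted p 0.443) at under 1 CPM on average. Fchsd2, an endocytosis gene near P2ry2, rose by 0.59 on the log2 scale (adjusted p 0.0008). Camkk2, a kinase gene 1431 bases from P2rx4, fell by 0.20 (adjusted p 0.00667), and Ift81, a cilium gene near P2rx7, rose by 0.66 (adjusted p 0.0191) but was not called without control replicate 6 (0.57) or MAARS replicate 9 (0.60). Tctn3, 132 bases from Entpd1, stood at 0.05 on the log2 scale (adjusted p 0.742), and Zswim7, 770 bases from Adora2b, at -0.29 (adjusted p 0.0885). Without control replicate 5, Zswim7 (-0.39) was called and the count of lower neighbours became 2.

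The rest of the pathway was read from 9 lists of genes chosen by function, with earlier results of these data known. Adjusted p came from edgeR over all genes tested. No list was tested as a set, and the counts per list are a description. Of 194 listed genes 149 were tested, 38 rose, 50 fell and 61 were not called, with a median log2 fold change of 0.02 beside 0.0080 for all genes tested. Over all genes tested 21.3% were called higher and 24.0% lower, the shares beside which the counts of each list stand.

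**Figure D5:**
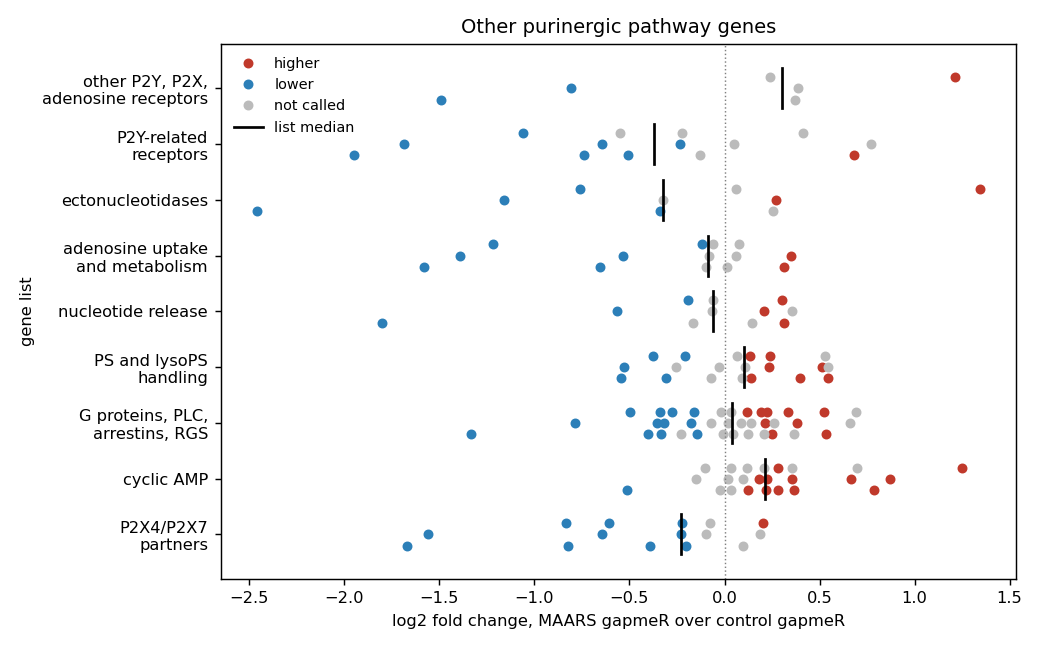
Log2 fold change with MAARS over control gapmeR of each tested gene in the 9 pathway lists, red for called higher, blue for called lower, grey for not called; black bars are list medians. The cyclic AMP list holds 12 higher and 1 lower, and the list of P2X4 and P2X7 partners holds 1 higher and 10 lower, beside 21.3% higher and 24.0% lower among all genes tested. The lists were chosen with earlier results of these data known.

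Of the other P2Y, P2X and adenosine receptors 6 of 12 were tested, with 1 higher, 2 lower and a median of 0.30. P2ry10b, a receptor gene close in sequence to the lysophosphatidylserine receptor P2ry10, fell from 32.9 ± 3.53 to 18.8 ± 2.19 CPM (log2 fold change -0.81, adjusted p 6.2e-05). P2ry10 itself was near 0 and not tested, and reads shared between such related genes are uncertain. Adora3, an adenosine receptor coupled to Gi, fell from 2.40 ± 0.69 to 0.853 ± 0.23 CPM (log2 fold change -1.49, adjusted p 0.00104). P2rx6 was called higher (1.21, adjusted p 0.0267) at 0.415 and 0.966 CPM with overlapping groups, and was not called without control replicate 2 (1.05), 5 (1.20) or 7 (1.08) or MAARS replicate 13 (1.09) or 15 (1.03), which leaves 0 higher. P2ry1, the ADP receptor coupled to Gq, averaged 2.51 and 3.24 CPM and was not called (adjusted p 0.116).

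Of the lipid and orphan receptors related in sequence to P2Y receptors 14 of 25 were tested, with 1 higher, 7 lower and a median of -0.37. The orphan receptor Gpr35 fell from 34.6 ± 8.36 to 8.96 ± 1.02 CPM (log2 fold change -1.95, adjusted p 7.3e-06), without overlap. The proton-sensing receptor Gpr65 fell from 166 ± 20.5 to 106 ± 8.72 CPM, and the platelet-activating factor receptor Ptafr, the most abundant per kb, from 384 ± 23.5 to 327 ± 15.1 CPM (log2 fold changes -0.64 and -0.23). Lpar6, a receptor for lysophosphatidic acid, was the 1 that rose, from 52.5 ± 7.36 to 84.1 ± 2.73 CPM (0.68); without control replicate 7 there were 2.

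Of the ectonucleotidases and related hydrolases 9 of 16 were tested, with 2 higher, 4 lower and a median of -0.32. Enpp4, a hydrolase of dinucleotides, had the largest fall among the tested genes of the 9 lists, from 17.9 ± 3.27 to 3.24 ± 0.42 CPM (log2 fold change -2.46, adjusted p 3.7e-06), against the direction of Entpd1. Acpp, an acid phosphatase that can dephosphorylate AMP, rose from 1.88 ± 0.34 to 4.80 ± 1.01 CPM (1.34), and Bst1, an enzyme of NAD metabolism, fell from 8.55 ± 1.09 to 5.03 ± 0.62 CPM (-0.76). Entpd5, the most abundant of them per kb, averaged 21.5 and 25.7 CPM (0.26, adjusted p 0.0633) and was called higher without control replicate 2 (0.36). Nt5e, which encodes CD73, was near 0 with 0.291 and 0.261 CPM and was not tested. Entpd4 was also near 0, and a near-identical copy could take its reads. The list entry for Entpd4 and its copy matched 2 genes of the count table, and only Entpd4 was examined.

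Of the genes of adenosine uptake and metabolism 14 of 19 were tested, with 2 higher, 6 lower and a median of -0.09. The pyrimidine 5′-nucleotidase Nt5c3 fell from 89.4 ± 13.95 to 29.8 ± 4.46 CPM (log2 fold change -1.58). The concentrative transporter Slc28a2 fell from 43.5 ± 8.19 to 18.7 ± 2.23 CPM (-1.22) and the lysosomal transporter Slc29a3 from 230 ± 17.8 to 159 ± 9.50 CPM (-0.53). Adenosine and its production were not measured. Nt5c, a deoxyribonucleotidase gene and the most abundant per kb, averaged 41.0 and 38.3 CPM and was not called (adjusted p 0.155). Of the genes of nucleotide release 11 of 16 were tested, with 3 higher, 3 lower and a median of -0.06. Calhm6, of the calcium homeostasis modulator channel family, fell from 36.3 ± 11.3 to 10.4 ± 2.82 CPM (-1.80), Lrrc8c, a subunit of volume-regulated anion channels, fell by 0.56, and Ank, known for pyrophosphate and ATP export, rose by 0.30. The ATP release channel Panx1 averaged 24.6 and 27.2 CPM and was not called (adjusted p 0.172).

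Around the ligand of Gpr34, 20 of 21 genes of lysophosphatidylserine and phosphatidylserine handling were tested, with 7 higher, 5 lower and a median of 0.10. Ano6, a phospholipid scramblase, rose from 197 ± 11.5 to 287 ± 13.9 CPM (log2 fold change 0.54, adjusted p 1.8e-05), and Lypla1, a lysophospholipase, rose from 56.3 ± 3.91 to 80.4 ± 1.53 CPM (0.51). Abhd12, the main lysophosphatidylserine lipase and the most abundant per kb, rose from 427 ± 14.7 to 505 ± 12.2 CPM (0.24, adjusted p 0.00099), and Plscr1, of the scramblase family, fell by 0.53. Abhd16a, a phosphatidylserine lipase that makes the ligand, fell by 0.21 (adjusted p 0.00676). Without control replicate 7 or MAARS replicate 9 the count of higher genes was 4.

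Downstream of the receptors, 36 of 37 genes of G proteins, phospholipase C, arrestins, receptor kinases and RGS proteins were tested, with 9 higher, 12 lower and a median of 0.04. Plcb3, a phospholipase C activated by Gq, rose by 0.53, Gna12, a G protein alpha subunit, rose by 0.52, and Rgs1, which shortens signalling of Gi and Gq, fell from 123 ± 24.4 to 48.6 ± 8.14 CPM (-1.33, adjusted p 2.6e-05). Gnai2, the Gi subunit most abundant per kb, averaged 992 and 1016 CPM and was not called (adjusted p 0.595). Without control replicate 6 or MAARS replicate 15 the count of lower genes was 7, and with upper-quartile scaling it was 6.

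Of the genes of cyclic AMP synthesis, breakdown and response 24 of 32 were tested, and 12 rose, 1 fell and 11 were not called, with a median of 0.21. Prkar2b, a regulatory subunit of protein kinase A, rose from 22.0 ± 2.34 to 40.3 ± 1.57 CPM (log2 fold change 0.87, adjusted p 7.9e-06), the adenylyl cyclase Adcy3 from 20.6 ± 0.44 to 32.6 ± 2.09 CPM (0.66) and the catalytic subunit Prkacb from 230 ± 12.5 to 296 ± 13.6 CPM (0.36). The 12 include genes that make and genes that break down cyclic AMP. Prkar1a, the most abundant per kb, rose by 0.12 (adjusted p 0.0359) but was not called in 7 of the 8 fits without 1 library (0.11 to 0.13, all but the one without control replicate 5) nor without the filter on low counts (0.12).

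Of the partners and effectors of P2X4 and P2X7 15 of 16 were tested, and 1 rose, 10 fell and 4 were not called, with a median of -0.23. Il1a fell from 15.1 ± 0.94 to 4.75 ± 0.67 CPM (log2 fold change -1.67, adjusted p 4.8e-06), Casp1, the inflammasome protease, from 219 ± 13.3 to 123 ± 15.1 CPM (-0.83) and the potassium channel Kcnn4 from 76.4 ± 5.71 to 50.1 ± 6.95 CPM (-0.61). P2rx7 itself was higher in the same libraries. The 1 that rose was the protease gene Adam10, and without control replicate 5, or with upper-quartile scaling, there were 2.

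Markers of other cells were summed beside these values. Over all genes tested 45.4% were called, the share beside which the called counts of these lists stand. The megakaryocyte and platelet list, whose cells are known for P2ry12, was higher in all MAARS libraries (504 to 605 against 236 to 315 CPM), with 2 of its 4 tested genes called higher. These were Pf4, which made up nearly all of the sum, and Ppbp, at 1.04 and 2.05 CPM; Itga2b (1.22 and 1.20 CPM) and Gp1ba (0.626 and 0.724 CPM) were not called, and Gp5, Gp6 and Gp9 were near 0 and not tested. The dendritic cell list was lower (153 to 255 against 707 to 898 CPM), mostly from Bst2, with 1 of 2 tested genes called and Flt3, Xcr1 and Clec9a near 0. The sum of T and NK cell markers was lower (41.0 to 51.6 against 66.2 to 85.8 CPM), with 1 of 1 tested gene called. This was Cd4 (74.0 and 46.2 CPM), which made up nearly all of the sum. Cd3e, Cd3d, Cd8a, Lck, Ncr1 and Nkg7 were near 0 and not tested, and Cd3g had 0 counts. The sum of mast cell and basophil markers was also lower (0.757 to 1.06 against 1.78 to 3.24 CPM), with 1 of 1 tested gene called. B cell (7.92 to 24.2 against 2.97 to 6.83 CPM) and erythroid sums (5.11 to 6.67 against 2.11 to 3.11 CPM) were higher, with 1 of 3 and 1 of 1 called. The B cell gene called was Ighm (1.14 and 10.6 CPM, with 21.4 CPM in MAARS replicate 9), which made up most of that difference. Cd79b (1.42 and 1.45 CPM) and Ebf1 (1.30 and 1.83 CPM) were not called. Neutrophil, eosinophil, fibroblast and endothelial sums overlapped between the groups. The part of these differences in the values of the 10 genes was not tested.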

How the data were processed

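Ribosome-depleted RNA of 8 BMDM libraries was sequenced in pairs of reads. According to the submitters' processing notes and the paper's methods, the authors trimmed reads with Trimmomatic 0.36, aligned them with STAR 2.5.2b to GRCm38 and counted them per gene with featureCounts of Subread 1.5.2; the deposited values are raw counts, whole numbers that were not normalized. Groups were taken from the sample labels, and no replicate was left out.

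The values given here were computed with edgeR 4.0.16 in R 4.3.3. The function filterByExpr removed genes of low count. It asked for about 10 counts, scaled for library size, in at least 4 libraries, the size of a group, and for 15 in total. The quasi-likelihood test was run with TMM factors, and p-values were adjusted by Benjamini-Hochberg over the 13051 genes left. The script was tested on simulated data. Standard errors are the log2 fold change over the square root of F. DESeq2 1.42.0, limma-voom (limma 3.58.1), other scalings and filters, a threshold of 0.01 and leaving out each library were the alternatives. Positions and exon lengths came from GENCODE M21 (GRCm38), where 99.47% of the genes were found; promoters came from RefSeq (GRCm38.p6), where Gpr34 and P2ry6 were not matched.

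The 10 genes, the pathway lists and the tests were chosen with earlier results of these data known. Named were the 10 genes, MAARS, overlapping and flanking genes, the 5 genes most correlated with Gpr34 over log2 CPM with a prior count of 2, and, per list, the 3 called genes of smallest p and the most abundant per kb. Marker lists were given as counts and sums, with single markers named for some of the sums that turned on them. The markers named, P2ry1, P2ry10, Nt5e, Entpd4, Panx1, Abhd16a and Adam10 were chosen after their values were seen.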

Additional observations from a re-analysis of the deposited data

Results flagged for a closer look

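In 58 genes of the report, 116 groups of 4 libraries were examined for a library that stands apart from the other 3, which chance alone gives in about 1 of 20 groups; 2 were found. P2ry6 had 123.8 CPM in control replicate 2 against 145.9 to 147.0 CPM in the other control libraries, a gap of 0.952 of the range. Abhd12, the lysophosphatidylserine lipase gene, had 522.8 CPM in MAARS replicate 13 against 496.4 to 500.7 CPM in the other MAARS libraries, a gap of 0.838 of the range.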

How the results depend on the processing

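All 10 genes kept their direction in each of 14 alternatives (8 fits without 1 library, 2 other scalings, DESeq2, limma-voom and 2 other filters); the call of P2rx4 held in 7 of them, P2ry6 was called in 3, and the calls of the 8 others did not move. No paired analysis was possible because the groups share no replicate numbers. At an adjusted p under 0.01, 1740 genes were higher, as were 0 of the other receptors, 1 gene of nucleotide release, 4 of lysophosphatidylserine handling and 0 partners of P2X4 and P2X7, and 6 G protein and related genes were lower; upper-quartile scaling left 6 of these lower and 2 of the partners higher. With the longest transcript as length, P2ry2 stood at 8.25, P2ry6 at 72.4, P2ry14 at 6.29, P2rx4 at 101.8, P2rx7 at 18.3 and Entpd1 at 60.4 CPM per kb in control libraries. Without 1 library, the counts of higher genes were 0 to 1 for the other receptors, 1 to 2 for the receptors related to P2Y, 4 to 8 for lysophosphatidylserine handling and 1 to 2 for the partners of P2X4 and P2X7, and the counts of lower genes were 7 to 11 for G proteins and related genes and 1 to 2 for neighbouring genes. With a prior count of 0.5, 4 of the 5 genes most like Gpr34 were shared, and Pdzd8 took the place of Cyp39a1. The cause of these moves was not tested. Of the 10 genes, Adora2b had the fewest counts and the largest standard error.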
